A study of Homo sapiens with 12 samples.

Results

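The genes described here encode the enzymes that oxidise, reduce and conjugate drugs, steroids and bile acid precursors. They were taken from the counts table by symbol, as cytochromes P450 (CYP), UDP-glucuronosyltransferases (UGT1 and UGT2), sulfotransferases (SULT), cytosolic glutathione transferases (GST) and aldo-keto reductases (AKR). CYP51A1, GSTA1, AKR1C2 and AKR1B10 were left out by the same rule. The patterns matched 41 rows, of which 3 were left-out symbols, so 38 members remained of the 10945 rows with a symbol. They were 16 CYP, 4 UGT, 4 SULT, 8 GST and 6 AKR genes.

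HepG2, an established human hepatoma line with a wild-type genotype per the labels, was profiled in 4 culture media by 3′ mRNA sequencing, which counts the 3′ ends of transcripts. EMEM is the medium in which the line was kept and seeded. LGDMEM and HGDMEM are DMEM with low and with high glucose, and Plasmax is a medium composed to resemble human plasma. At 24 h after seeding the cells received EMEM, LGDMEM, HGDMEM or Plasmax, all with 10% heat-inactivated fetal bovine serum, and they were collected after 96 h with fresh medium at 48 h. Each medium had 3 libraries, so the EMEM libraries serve as the control that also had its medium changed. Whether the 3 were grown as separate cultures is not said in the labels, and p-values therefore reflect library-to-library spread that could be technical.

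Drug and steroid metabolism proceeds in steps. Cytochromes P450 and aldo-keto reductases introduce or unmask a polar group, and UGTs, SULTs and GSTs then attach glucuronic acid, sulfate or glutathione, after which transporters export the product. In liver the same families also make bile acids, activate and degrade vitamin D and inactivate steroid hormones, and many of their genes are targets of the aryl hydrocarbon receptor, nuclear receptors and hepatocyte transcription factors.

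The libraries held 3995365 to 5840057 counts on rows with a symbol. Levels are given as CPM on TMM-scaled library sizes, and a gene was called when its adjusted p was under 0.05 in the quasi-likelihood test of edgeR, Benjamini-Hochberg adjusted over all rows. All 10 hepatocyte markers looked for were present, and the 4 endothelial markers had no row. Several marker sums moved with Plasmax. The summed hepatocyte markers lay between 14057 and 15467 CPM in Plasmax against 20587 to 25236 CPM in the other libraries. ALB made up the largest part of that sum. SERPINA1 was called higher in Plasmax in all 3 comparisons (log2 fold changes 0.57, 0.48 and 0.52), and APOB and AHSG were not called. FGB was called higher against LGDMEM only (0.38, adjusted p = 0.0214), and APOA1 lower against EMEM only (−0.87, adjusted p = 0.0373). The 3 hepatoma or fetal liver markers with a row (of 4) summed to between 2863 and 3218 CPM against 5507 to 7950 CPM. Of these, AFP and DLK1 were called lower in all 3 comparisons, while GPC3 was not called (−0.34, −0.27 and 0.25). The 3 cholangiocyte markers with a row (of 4: KRT19, EPCAM and SOX9) summed to between 839.7 and 916 against 449.5 to 563 CPM. The 3 stellate or fibroblast markers with a row (of 5) summed to 69.4 to 94.9 CPM in Plasmax against 34.2 to 65.4 CPM, a sum that is mostly ACTA2, while PDGFRB was called lower in Plasmax in all 3 comparisons (−1.59, −1.74 and −1.38). Of the 5 leukocyte markers only CD68 and LYZ had a row, summing to 1962 to 2188 CPM against 2120 to 3290 CPM. That sum is nearly all LYZ, which was called lower against EMEM and HGDMEM. CD68, at a mean of 5.77 CPM in Plasmax and 2.24 CPM in EMEM, was called higher against EMEM only (1.37, adjusted p = 0.0333). Mitochondrially encoded transcripts took 13.5 ± 1.00% of counts in Plasmax and 10.9 to 11.4% on average in the other media. The part of these shifts in the results on the enzymes was not tested, and in these bulk libraries fewer cells of a kind and less RNA per cell cannot be told apart. LGDMEM 3 stood apart on the second principal component, so the counts of members called are also given without it.

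Enzyme transcripts were more often lower than higher in Plasmax. Against EMEM, 14 of the 38 members were called, 3 higher and 11 lower, or 36.8% where 22.1% of all rows were called. By direction this was 7.89% higher, where all rows gave 10.0%, and 28.9% lower, where all rows gave 12.1%. Against LGDMEM, 13 members were called, 1 higher and 12 lower (34.2%, with 21.2% of all rows, 9.48% higher and 11.7% lower). Against HGDMEM, 23 members were called, 4 higher and 19 lower (60.5%, with 26.9% of all rows, 12.8% higher and 14.1% lower). The 19 include GSTA2, which is in the table only through its HGDMEM libraries, so its call is partly built in. The 3 comparisons share the Plasmax libraries and are not independent of each other.

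The median log2 fold change of the 38 members was −0.59 against EMEM, −0.69 against LGDMEM and −0.65 against HGDMEM, where the medians over all rows were 0.02, 0.00 and 0.01. A negative log2 fold change was found for 28, 28 and 31 of the 38 members, and for 48.8%, 49.9% and 49.1% of all rows. Without LGDMEM 3 the counts were 14, 13 and 23, where 24.3%, 20.7% and 28.9% of all rows were called. Of the 13 genes called against LGDMEM, 10 were shared. The count against EMEM fell to 9 without EMEM 3, Plasmax 1 or Plasmax 3, where 15.9%, 17.2% and 16.4% of all rows were called. The count against HGDMEM fell to 12 without Plasmax 3, where 21.1% of all rows were called.

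**Figure D1:**
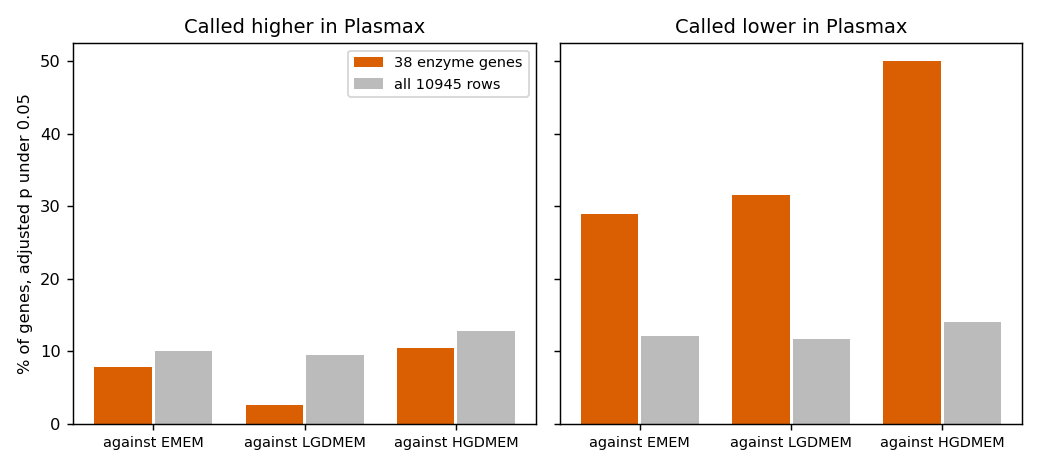
Share of the 38 enzyme genes (orange) and of all 10945 rows (grey) called at an adjusted p under 0.05, in %, for Plasmax against each other medium, with genes higher in Plasmax in the left panel and lower in the right. The orange bars for lower genes reach 28.9%, 31.6% and 50%, and the orange bars for higher genes stay below the grey ones. The 50% bar against HGDMEM includes GSTA2, which is in the table only through its HGDMEM libraries.

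In 16 of the 38 members the 3 Plasmax libraries all lay below the other 9, which held for 11.3% of all rows. These were SULT2A1, SULT1A1, SULT1A2, CYP27A1, CYP19A1, CYP3A7, CYP4F11, CYP4F12, UGT2B10, UGT2B7, GSTO1, GSTM3, AKR1C1, AKR1C3, AKR1D1 and AKR7A2. The Plasmax libraries all lay above the other 9 in 2 members, CYP1A1 and CYP20A1, against 10.9% of all rows. Summed by family, the CPM of the CYP, SULT, GST and AKR members did not overlap between Plasmax and the other libraries. The SULT sum, for example, lay between 180.7 and 219 CPM in Plasmax and between 381 and 519 CPM elsewhere. The UGT sums overlapped, at 40.9 to 55.8 CPM in Plasmax and 46.3 to 73.6 CPM elsewhere. CYP27A1 made up the largest part of the CYP sum. Its means were 142.6, 144.4, 144.6 and 85.4 CPM in EMEM, LGDMEM, HGDMEM and Plasmax. The mean CYP sums were 274, 267, 288 and 213 CPM in the same order. The separation of the CYP sum therefore does not describe the other CYP members, which were not summed without CYP27A1.

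Called lower in all 3 comparisons were 10 members, where 8.43% of all rows were: SULT2A1, SULT1A1, SULT1A2, CYP27A1, CYP19A1, UGT2B10, GSTO1, AKR1C1, AKR1C3 and AKR7A2. CYP1A1 was called higher in all 3, which held for 5.83% of all rows. In all, 25 members were called in at least 1 of the 3 comparisons, where 34.0% of all rows were, and 13 in none. GSTA2 is among the 25 through its call against HGDMEM alone. Without LGDMEM 3, 17 members lay below the other 8 libraries (13.2% of all rows) and 2 above (12.6%). Lower in all 3 comparisons were then again 10 (8.85% of all rows), with GSTA4 in place of AKR1C3, CYP1A1 was again the member higher in all 3 (6.26%), and 26 were called in at least 1 (35.6%).

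**Figure D2:**
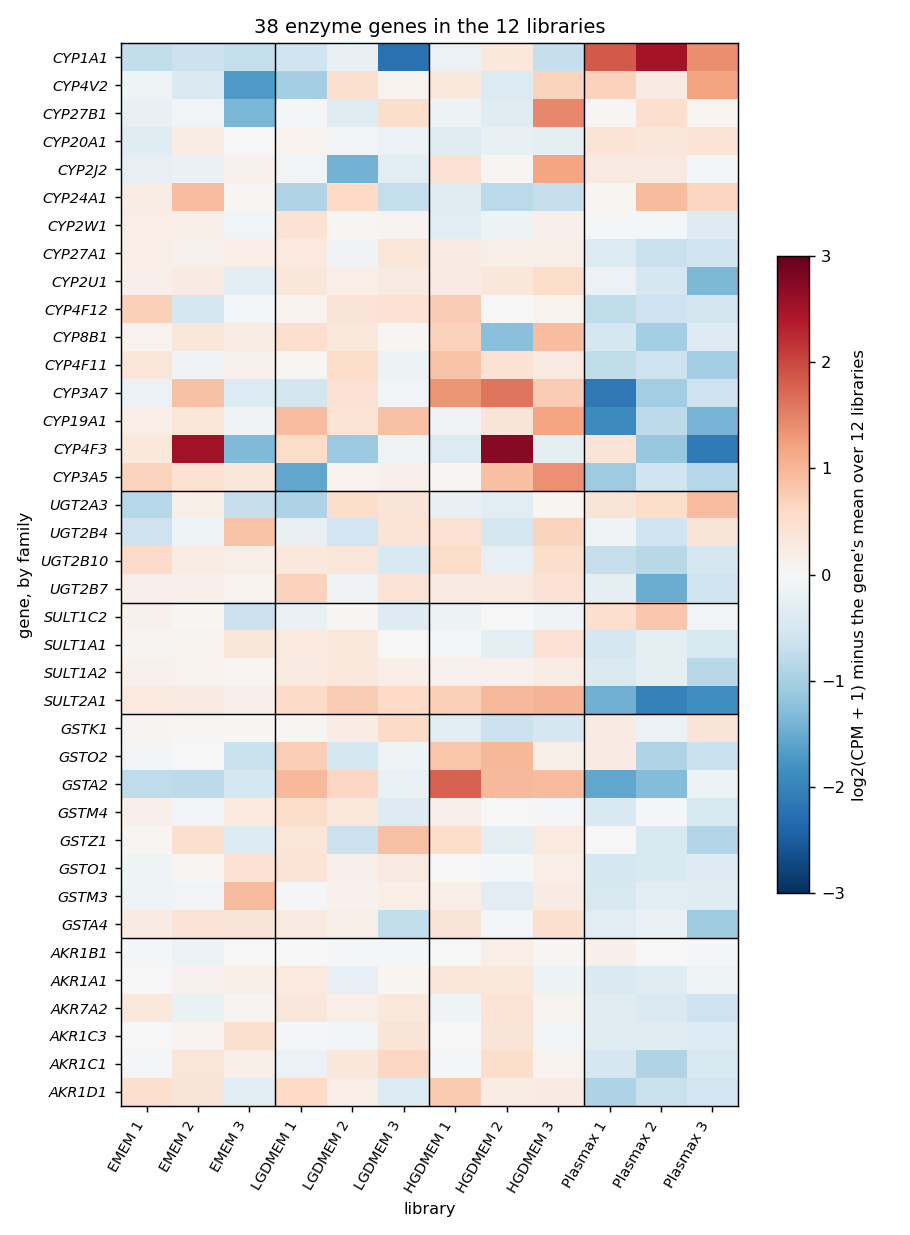
log2(CPM + 1) of each enzyme gene in the 12 libraries, minus the gene's mean over the libraries (colour, log2 units), with genes in rows by family and libraries in columns by medium. CYP1A1, CYP4V2, CYP20A1 and UGT2A3 are red or orange in all 3 Plasmax columns, SULT2A1, CYP19A1 and AKR1C1 are blue in them, and CYP4F3 is high in EMEM 2 and HGDMEM 2.

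Among the oxidising enzymes of drugs and xenobiotics, CYP1A1 went the other way from most members. CYP1A1 hydroxylates polycyclic aromatic hydrocarbons and is the classical target of the aryl hydrocarbon receptor AHR. It measured 2.43, 2.67 and 2.52 CPM in EMEM, 2.78, 3.93 and 0.226 CPM in LGDMEM, 4.13, 6.12 and 2.54 CPM in HGDMEM and 19.6, 31.5 and 14.1 CPM in Plasmax. All 3 Plasmax libraries lay above every other library, and they ranged widely among themselves, from 14.1 to 31.5 CPM. The log2 fold change was 3.08 ± 0.54 (SE) against EMEM (adjusted p = 0.00053), 3.20 ± 0.55 against LGDMEM (adjusted p = 0.000454) and 2.33 ± 0.51 against HGDMEM (adjusted p = 0.00229). The call held in all 20 alternative analyses of each comparison.

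The bases just before the RefSeq transcription start of CYP1A1 are shown because they hold the pentamer core to which AHR and its partner ARNT bind. The sequences here are 250 bases long, end at the base before the start and read 5′ to 3′ on the gene's strand. Capitals mark matches on either strand to GCGTG (the AHR core), TGACNNNGC (the core of the antioxidant response element), AGGTCA (a nuclear receptor motif), GTTAAT (an HNF1 motif), CCAAT and TATAAA. The CYP1A1 window lies at chr15:74725529-74725778 of GRCh38.p14, on the minus strand.
CYP1A1: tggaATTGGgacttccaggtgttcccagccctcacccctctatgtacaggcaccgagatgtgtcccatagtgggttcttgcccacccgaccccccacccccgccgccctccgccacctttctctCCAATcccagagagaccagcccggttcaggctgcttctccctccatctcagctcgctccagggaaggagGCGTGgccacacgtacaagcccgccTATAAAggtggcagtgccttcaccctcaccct
GCGTG starts 57 bases before the start and TATAAA 32 bases before it. CCAAT starts 126 bases before it, and its reverse complement ATTGG 246 bases before it. Of all 35116 RefSeq promoter windows of this length, 32.2% hold GCGTG, 10.9% TGACNNNGC, 12.1% AGGTCA, 6.23% GTTAAT, 32.0% CCAAT and 10.7% TATAAA. Of the 38 members 31 were matched to 43 windows. GCGTG was found in 12 of these 43 windows, which belong to 10 members. A match is a description of the letters and not a site shown to be bound.

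The CYP3A genes encode the family whose adult member clears many drugs. CYP3A7, the form typical of fetal liver, measured 2.91, 7.12 and 2.31 CPM in EMEM, 2.02, 5.11 and 3.17 CPM in LGDMEM, 10.1, 12.4 and 6.56 CPM in HGDMEM and 0, 1.14 and 1.86 CPM in Plasmax. The Plasmax libraries were the lowest and 2 of the 3 HGDMEM libraries the highest. CYP3A7 was lower in Plasmax than in HGDMEM by a log2 fold change of −3.25 ± 0.71 (adjusted p = 0.00235), while the values against EMEM (−2.03 ± 0.73, adjusted p = 0.0522) and LGDMEM (−1.77 ± 0.74, adjusted p = 0.0975) were not called. CYP3A5 lay between 0.412 and 0.948 CPM in Plasmax and at 2.06, 4.47 and 6.56 CPM in HGDMEM (−2.66 ± 0.82, adjusted p = 0.022). That call ended without HGDMEM 3, Plasmax 1 or Plasmax 3 and with limma voom, where its adjusted p reached 0.0914. Of the last 300 bases of the CYP3A5 transcript, 22.3% of the 50-base windows also occur in CYP3A4 or CYP3A7, so reads may be split between these genes.

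Other CYPs act on fatty acids and eicosanoids. CYP4F12 measured 17.5, 6.94 and 9.68 CPM in EMEM, 11.1, 13.6 and 14.0 CPM in LGDMEM, 17.8, 10.3 and 11.0 CPM in HGDMEM and 5.56, 6.26 and 6.61 CPM in Plasmax. Its log2 fold change was −1.07 ± 0.36 against LGDMEM (adjusted p = 0.0386) and −1.08 ± 0.35 against HGDMEM (adjusted p = 0.0295). Leaving out any LGDMEM or any Plasmax library, or limma voom, ended the first call (adjusted p up to 0.104) and leaving out HGDMEM 1 or any Plasmax library ended the second (up to 0.162). CYP4F11 lay between 1.03 and 1.71 CPM in Plasmax and between 2.72 and 6.56 CPM elsewhere, and was called against HGDMEM (−1.84 ± 0.54, adjusted p = 0.016), but not without HGDMEM 1 or Plasmax 3 (up to 0.0679). CYP4V2, a fatty acid hydroxylase, measured 5.10, 3.92 and 1.05 CPM in EMEM and 9.68, 7.01 and 14.3 CPM in Plasmax. It was called higher against EMEM (1.62 ± 0.55, adjusted p = 0.0395), a call lost without EMEM 2, EMEM 3, Plasmax 1 or Plasmax 3 and with the replicate number as a block (up to 0.152). The LGDMEM and HGDMEM libraries of CYP4V2, at 2.27 to 9.52 CPM, overlapped both. CYP20A1, a P450 of unknown substrate, lay between 33.4 and 35.2 CPM in Plasmax and between 19.9 and 30.8 CPM elsewhere, with a call against HGDMEM (0.71 ± 0.19, adjusted p = 0.0106).

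Among the P450s of sterols and steroid hormones, CYP27A1 and CYP19A1 were lower in Plasmax in all 3 comparisons. CYP27A1, the mitochondrial sterol hydroxylase of bile acid synthesis, measured 145, 137 and 146 CPM in EMEM, 155, 117 and 161 CPM in LGDMEM, 149, 143 and 143 CPM in HGDMEM and 95, 78.9 and 82.3 CPM in Plasmax. The Plasmax libraries lay below the rest, and no call was made among the other 3 media. The log2 fold changes were −0.74 ± 0.14 (adjusted p = 0.000773), −0.76 ± 0.14 (adjusted p = 0.000659) and −0.76 ± 0.14 (adjusted p = 0.000437) against EMEM, LGDMEM and HGDMEM.

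CYP19A1 is aromatase, which converts androgens to estrogens. It measured 5.10, 5.87 and 4.00 CPM in EMEM, 9.09, 6.09 and 8.83 CPM in LGDMEM, 3.94, 5.96 and 11.2 CPM in HGDMEM and 0.412, 2.09 and 1.03 CPM in Plasmax. The Plasmax values rest on 2, 11 and 5 counts. No Plasmax library reached the lowest of the others, and the log2 fold changes were −2.05 ± 0.57 (adjusted p = 0.0153), −2.72 ± 0.57 (adjusted p = 0.00216) and −2.53 ± 0.56 (adjusted p = 0.00272). The call against EMEM was lost without Plasmax 1 or Plasmax 3 and with limma voom (adjusted p up to 0.0623).

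CYP24A1, which degrades active vitamin D, measured 3.75, 2.48 and 2.75 CPM in HGDMEM and 5.36, 10.8 and 8.48 CPM in Plasmax (1.45 ± 0.51, adjusted p = 0.0427). EMEM, at 6.07, 10.5 and 5.26 CPM, covered much of the Plasmax range. The call against HGDMEM was lost without EMEM 1, without any HGDMEM library, without Plasmax 2 or Plasmax 3, and with limma voom (adjusted p up to 0.154). CYP27B1, the activating enzyme of vitamin D, lay between 0 and 5.92 CPM over the 12 libraries, and CYP8B1, which sets the balance of bile acids, between 0.331 and 5.08 CPM. Neither was called, nor were CYP2J2 (0.197 to 6.35 CPM), CYP2U1 (0.827 to 5.71 CPM), CYP2W1 (25 to 44.9 CPM) and CYP4F3 (1.03 to 57.3 CPM). Counted over the whole family, CYP calls in Plasmax were 2 higher and 2 lower against EMEM, 1 and 3 against LGDMEM, and 3 and 6 against HGDMEM. The share called was 25% against EMEM and against LGDMEM, near the 22.1% and 21.2% of all rows, and 56.3% against HGDMEM, where all rows gave 26.9%.

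Of the 5 families, the sulfotransferases had the lowest summed CPM in Plasmax relative to each other medium, and 3 of the 4 members were called lower in all 3 comparisons. SULT2A1 transfers sulfate to dehydroepiandrosterone, other hydroxysteroids and bile acids. It measured 138, 137 and 125 CPM in EMEM, 169, 192 and 169.8 CPM in LGDMEM, 185, 222 and 229 CPM in HGDMEM and 40.8, 26.7 and 30.2 CPM in Plasmax. The highest Plasmax library lay far below the lowest other library. The log2 fold change was −2.03 ± 0.16 against EMEM (adjusted p = 7.86e-08), −2.44 ± 0.16 against LGDMEM (adjusted p = 9.36e-09) and −2.70 ± 0.16 against HGDMEM (adjusted p = 4.26e-09). All 20 alternatives of each comparison kept the call, with log2 fold changes between −2.90 and −1.91.

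The window before the start of SULT2A1, at chr19:47886316-47886565 of GRCh38.p14 on the minus strand, is shown because this gene had the smallest adjusted p of the members in all 3 comparisons. It holds none of the 6 motifs searched, which says nothing about binding outside these letters or this window.
SULT2A1: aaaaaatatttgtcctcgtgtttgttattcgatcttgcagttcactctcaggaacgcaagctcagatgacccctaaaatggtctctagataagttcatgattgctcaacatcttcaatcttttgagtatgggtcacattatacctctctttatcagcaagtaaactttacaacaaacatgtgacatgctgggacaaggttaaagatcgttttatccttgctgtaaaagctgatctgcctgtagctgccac

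SULT1A1 and SULT1A2 are neighbouring genes for phenol sulfotransferases, which act on small phenols and phenolic drugs. SULT1A1 measured 149.8, 153 and 179 CPM in EMEM, 173, 178 and 143 CPM in LGDMEM, 136, 118 and 192 CPM in HGDMEM and 98.9, 117 and 101 CPM in Plasmax. SULT1A2 measured 86.7, 84.9 and 82.5 CPM in EMEM, 95.7, 99.1 and 90.6 CPM in LGDMEM, 86.5, 86.7 and 92.9 CPM in HGDMEM and 58.7, 63.9 and 43.6 CPM in Plasmax. In both genes the Plasmax libraries were the lowest, although SULT1A1 in Plasmax 2 and HGDMEM 2 differed by little. SULT1A1 changed by −0.61 ± 0.16 (adjusted p = 0.0121), −0.64 ± 0.16 (adjusted p = 0.00897) and −0.49 ± 0.16 (adjusted p = 0.0314) against EMEM, LGDMEM and HGDMEM. SULT1A2 changed by −0.61 ± 0.15 (adjusted p = 0.00538), −0.78 ± 0.15 (adjusted p = 0.000903) and −0.68 ± 0.14 (adjusted p = 0.00194). The SULT1A1 call was lost against EMEM without EMEM 3 or Plasmax 1 (adjusted p up to 0.0593) and against HGDMEM without HGDMEM 3, Plasmax 1 or Plasmax 3 (up to 0.24). Their 3′ ends are partly identical, with 26.7% of SULT1A1 windows and 27.5% of SULT1A2 windows also found in each other or in SULT1A3 and SULT1A4, so the split of reads between them is uncertain. SULT1C2, the fourth member, was not called, at 5.79 to 11.6 CPM in Plasmax and 3.58 to 6.80 CPM elsewhere.

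**Figure D3:**
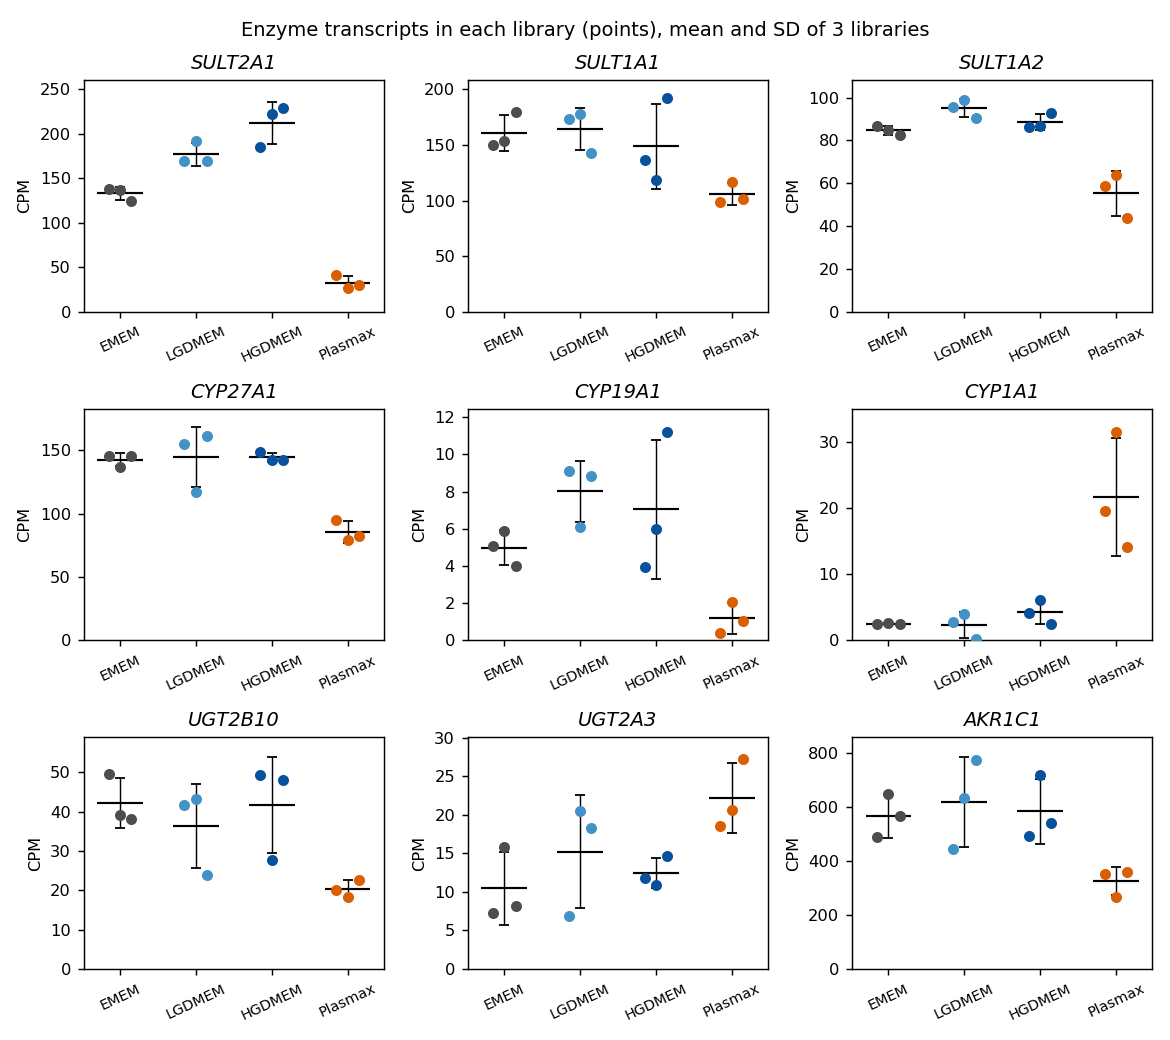
CPM of 9 enzyme genes in each library (points), with the mean and SD of the 3 libraries of each medium (line and bar); each vertical axis starts at 0 and has its own scale. SULT2A1 falls from at least 125 CPM in every other library to at most 40.8 CPM in Plasmax, CYP1A1 is highest in Plasmax, and UGT2A3 overlaps between media.

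The UGTs attach glucuronic acid to drugs, bilirubin, steroids and bile acids, and the 4 members measured were all of the UGT2 family. UGT2B10, which glucuronidates amines, measured 49.5, 39.2 and 38.1 CPM in EMEM, 41.6, 43.2 and 24.0 CPM in LGDMEM, 49.3, 27.6 and 48.0 CPM in HGDMEM and 20.2, 18.2 and 22.7 CPM in Plasmax. Its Plasmax libraries were the lowest, with LGDMEM 3 close above them. The log2 fold change was −1.05 ± 0.25 against EMEM (adjusted p = 0.00538), −0.83 ± 0.25 against LGDMEM (adjusted p = 0.0231) and −1.03 ± 0.25 against HGDMEM (adjusted p = 0.00484). Against LGDMEM the call was lost without LGDMEM 1, LGDMEM 2, Plasmax 1 or Plasmax 2 and with limma voom (adjusted p up to 0.0963).

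UGT2B7, which conjugates morphine, estrogens and bile acids, measured 6.31, 6.23 and 6.10 CPM in EMEM, 9.59, 5.11 and 7.70 CPM in LGDMEM, 6.94, 6.95 and 7.83 CPM in HGDMEM and 4.33, 1.33 and 3.31 CPM in Plasmax. It was called against LGDMEM (−1.32 ± 0.45, adjusted p = 0.042) and HGDMEM (−1.28 ± 0.44, adjusted p = 0.0391) and not against EMEM (−1.06 ± 0.45, adjusted p = 0.0994). Both calls were near the threshold. The first was lost in 12 of 20 alternatives, among them each library left out except LGDMEM 2 and Plasmax 1 (adjusted p up to 0.156), and the second in 6, without any HGDMEM library, Plasmax 2 or Plasmax 3 and in the fit to those 2 media alone (up to 0.15).

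UGT2A3, a bile acid glucuronosyltransferase whose gene lies between those of UGT2B10 and UGT2B7 with no protein-coding gene in between, pointed the other way. It measured 7.28, 15.8 and 8.2 CPM in EMEM, 6.81, 20.4 and 18.3 CPM in LGDMEM, 11.8, 10.9 and 14.6 CPM in HGDMEM and 18.5, 20.7 and 27.3 CPM in Plasmax. Plasmax lay above EMEM and HGDMEM in every library but overlapped LGDMEM. It was called higher against EMEM only (1.07 ± 0.36, adjusted p = 0.0391), a call lost without EMEM 1, EMEM 3 or any Plasmax library (adjusted p up to 0.152). UGT2B4, a further bile acid conjugating enzyme, lay between 0.728 and 3.79 CPM over the 12 libraries and was not called.

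The promoter windows of UGT2B10 (chr4:68815744-68815993, plus strand) and UGT2A3 (chr4:68951805-68952054, minus strand) of GRCh38.p14 are set side by side because these neighbours had log2 fold changes of opposite sign.
UGT2B10: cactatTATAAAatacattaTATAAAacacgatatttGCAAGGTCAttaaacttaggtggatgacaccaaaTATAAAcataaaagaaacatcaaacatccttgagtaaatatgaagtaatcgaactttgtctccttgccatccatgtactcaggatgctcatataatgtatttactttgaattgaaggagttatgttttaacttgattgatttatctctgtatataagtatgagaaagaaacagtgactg
UGT2A3: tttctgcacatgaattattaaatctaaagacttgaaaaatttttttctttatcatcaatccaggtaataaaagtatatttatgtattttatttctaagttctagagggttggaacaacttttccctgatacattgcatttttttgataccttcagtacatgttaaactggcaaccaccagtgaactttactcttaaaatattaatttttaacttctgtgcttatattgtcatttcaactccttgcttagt
UGT2B10 holds TATAAA at 244, 230 and 179 bases before the start, and AGGTCA at 210 bases before it, inside a match to the reverse complement of TGACNNNGC that starts at 213 bases. The UGT2A3 window holds none of the 6 motifs.

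The glutathione transferases conjugate electrophiles and peroxidised lipids. GSTO1, an omega-class enzyme that also reduces dehydroascorbate and methylated arsenic, measured 151, 174 and 226 CPM in EMEM, 219, 184 and 200.4 CPM in LGDMEM, 168, 159 and 192 CPM in HGDMEM and 116, 121 and 126 CPM in Plasmax. Plasmax lay below all others, with log2 fold changes of −0.60 ± 0.14 (adjusted p = 0.00548), −0.74 ± 0.14 (adjusted p = 0.0014) and −0.52 ± 0.14 (adjusted p = 0.0118), and the call against HGDMEM was lost without HGDMEM 3 (adjusted p = 0.0613). GSTA4, which clears the lipid peroxidation product hydroxynonenal, measured 38.8, 43.6 and 43.3 CPM in EMEM, 39.9, 37.3 and 19.2 CPM in LGDMEM, 42.8, 31.8 and 45.9 CPM in HGDMEM and 26, 28.4 and 15.1 CPM in Plasmax. It was called lower against EMEM (−0.85 ± 0.26, adjusted p = 0.0254) and HGDMEM (−0.79 ± 0.26, adjusted p = 0.0321), and LGDMEM 3 lay inside the Plasmax range. Leaving out EMEM 2, EMEM 3 or Plasmax 3 ended the first call (up to 0.123), and leaving out HGDMEM 1, HGDMEM 3 or Plasmax 3 the second (up to 0.153).

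GSTA2, an alpha-class transferase with steroid isomerase activity, was called in Plasmax against HGDMEM alone. It measured 0.728, 0.712 and 1.05 CPM in EMEM, 4.80, 3.54 and 1.58 CPM in LGDMEM, 9.00, 4.80 and 4.65 CPM in HGDMEM and 0, 0.190 and 1.65 CPM in Plasmax. HGDMEM lay above EMEM and above Plasmax in every library, while EMEM lay within the Plasmax range. The log2 fold change of Plasmax was −3.29 ± 0.82 against HGDMEM (adjusted p = 0.00606), −2.39 ± 0.84 against LGDMEM (adjusted p = 0.05, not called) and −0.44 ± 0.94 against EMEM (adjusted p = 0.794). GSTA2 reached the level at which rows were kept only through its HGDMEM libraries, so a difference from HGDMEM is partly built into its presence in the table. GSTK1, a mitochondrial and peroxisomal transferase, measured 17.1, 13.7 and 15.2 CPM in HGDMEM and 26.2, 19.1 and 28.7 CPM in Plasmax (0.68 ± 0.22, adjusted p = 0.0265). The other media lay between 22.5 and 33.3 CPM, so for GSTK1 it was the HGDMEM libraries that stood apart, and the call was lost without HGDMEM 2, HGDMEM 3, Plasmax 1 or Plasmax 3 (adjusted p up to 0.111). GSTM3 (13.8 to 38.9 CPM), GSTM4 (17.0 to 35.6 CPM), GSTO2 (0.379 to 4.14 CPM) and GSTZ1 (4.55 to 17.9 CPM) were not called.

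The aldo-keto reductases reduce the carbonyl groups of steroids, sugars and lipid aldehydes. AKR1C1, which inactivates progesterone, measured 486, 646 and 564 CPM in EMEM, 442, 631 and 774 CPM in LGDMEM, 490.4, 718 and 538 CPM in HGDMEM and 353, 265 and 358 CPM in Plasmax. The Plasmax libraries were the lowest, and the log2 fold changes were −0.80 ± 0.19 (adjusted p = 0.00484), −0.92 ± 0.19 (adjusted p = 0.00177) and −0.84 ± 0.19 (adjusted p = 0.00258). All 3 calls held in every alternative fit.

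AKR1C3, which makes testosterone from androstenedione, measured 158, 172 and 222 CPM in EMEM, 152, 150.2 and 209.9 CPM in LGDMEM, 159, 209 and 152 CPM in HGDMEM and 124, 123 and 121 CPM in Plasmax. The 3 Plasmax libraries lay close together and below the rest. Its log2 fold changes were −0.58 ± 0.16 (adjusted p = 0.0156), −0.48 ± 0.16 (adjusted p = 0.0458) and −0.50 ± 0.16 (adjusted p = 0.0302). The call against LGDMEM was lost in 10 of 20 alternatives, among them upper-quartile and library-size scaling and leaving out EMEM 2, LGDMEM 3, HGDMEM 1 or any Plasmax library (adjusted p up to 0.199). Against EMEM it was lost without EMEM 3 or Plasmax 3 (up to 0.102), and against HGDMEM without HGDMEM 2 or any Plasmax library (up to 0.161).

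AKR7A2, an aldehyde reductase that also acts on aflatoxin dialdehyde, measured 51.2, 35.1 and 42.9 CPM in EMEM, 51.5, 46.8 and 50.7 CPM in LGDMEM, 36.9, 54.8 and 43.8 CPM in HGDMEM and 31.5, 30 and 26.3 CPM in Plasmax. All Plasmax libraries lay below the rest. Its log2 fold changes were −0.55 ± 0.19 (adjusted p = 0.0421), −0.76 ± 0.19 (adjusted p = 0.00731) and −0.63 ± 0.19 (adjusted p = 0.0186). The call against EMEM was lost in 8 of 20 alternatives, with library-size scaling, with limma voom and without EMEM 1, EMEM 3, HGDMEM 3 or any Plasmax library (adjusted p up to 0.19), and that against HGDMEM without HGDMEM 2 or Plasmax 3 (up to 0.103).

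AKR1D1, the reductase that shapes the steroid ring in bile acid synthesis, lay between 2.06 and 2.89 CPM in Plasmax and between 3.4 and 9.00 CPM elsewhere. It was called against HGDMEM (−1.44 ± 0.47, adjusted p = 0.0296), a call lost without HGDMEM 1 or any Plasmax library and with limma voom (adjusted p up to 0.123). AKR1A1, the aldehyde reductase, lay between 46.5 and 57.7 CPM in Plasmax and between 56.7 and 81.6 CPM in HGDMEM (−0.51 ± 0.17, adjusted p = 0.0366), and this call was lost without HGDMEM 1, HGDMEM 2, Plasmax 1 or Plasmax 2 (up to 0.144). AKR1B1, aldose reductase of the polyol pathway, was the AKR member that was never called. It lay between 111 and 128 CPM in EMEM, 121 and 127 CPM in LGDMEM, 127 and 145 CPM in HGDMEM and 120.3 and 140.1 CPM in Plasmax, with log2 fold changes of 0.10 ± 0.12, 0.06 ± 0.12 and −0.06 ± 0.12.

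**Figure D4:**
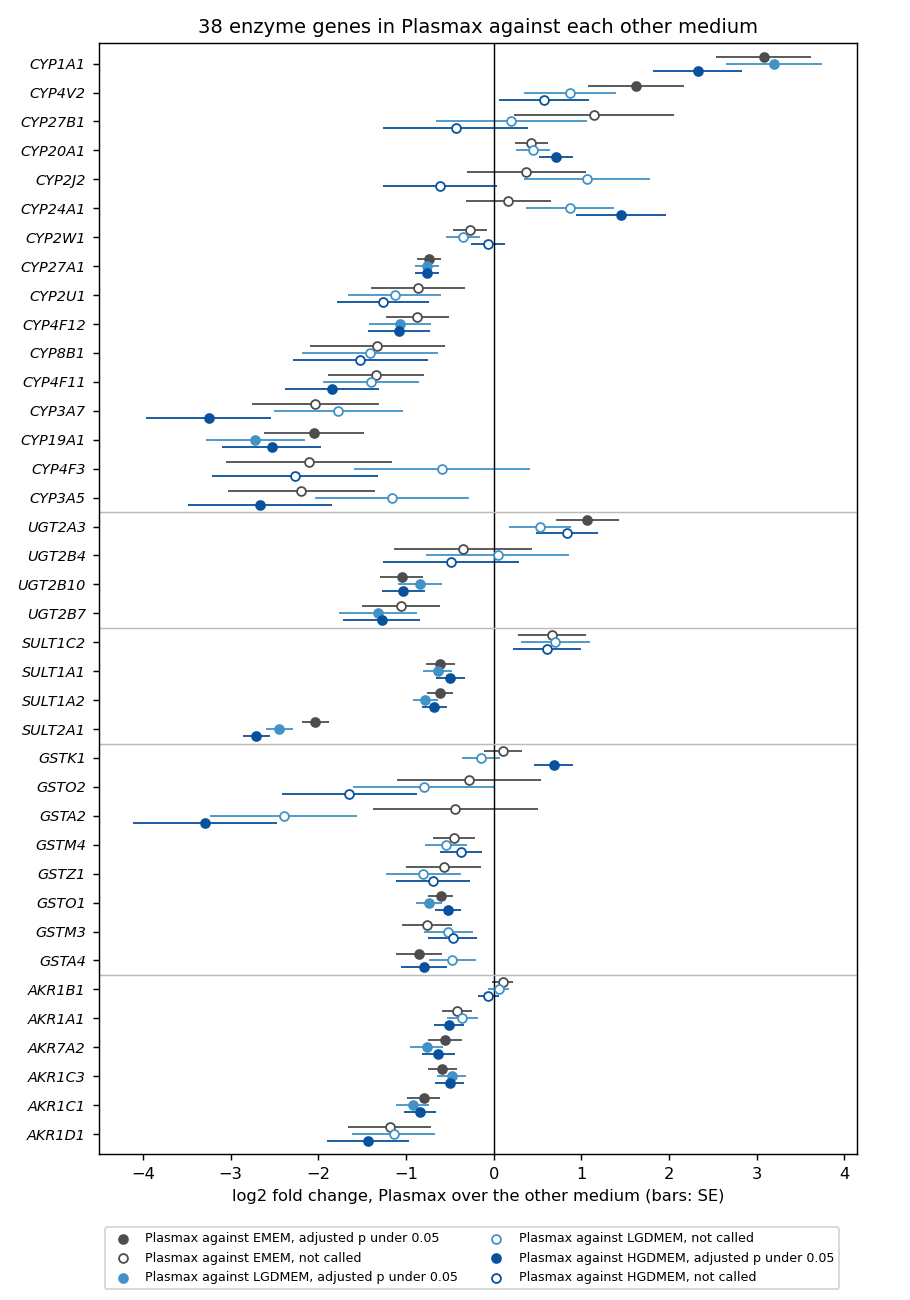
log2 fold change of each enzyme gene in Plasmax over EMEM (dark grey), LGDMEM (light blue) and HGDMEM (dark blue), with SE bars, by family from CYP at the top to AKR at the bottom. Filled points are called at an adjusted p under 0.05 and open points are not; SULT2A1 and CYP1A1 lie far from 0 with the same sign in all 3 comparisons.

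Among EMEM, LGDMEM and HGDMEM no member was called. edgeR called 0 of the 38 members between LGDMEM and EMEM (0.0731% of all rows were called), 0 of them for HGDMEM against EMEM (0.164%) and 0 for HGDMEM against LGDMEM (0.0640%). At an unadjusted p under 0.05 there were 2, 4 and 3 members, or 5.26%, 10.5% and 7.89%, where all rows gave 7.91%, 7.58% and 7.86%. SULT2A1 had a log2 fold change of 0.67 ± 0.15 in HGDMEM over EMEM (adjusted p = 0.0739), with all 3 HGDMEM libraries above all 3 EMEM libraries. It was called by DESeq2 (adjusted p = 0.00286), by limma voom (0.0248), in the fit to those 2 media alone (0.0245), without LGDMEM 3 (0.0394) and without Plasmax 1 (0.0436). GSTA2, at 2.85 ± 0.79 (adjusted p = 0.239), was called by DESeq2 alone (0.0335), and it is in the table only through its HGDMEM libraries. DESeq2 called 0 members between LGDMEM and EMEM, and 0 of the 20 for which it gave an adjusted p between HGDMEM and LGDMEM. limma voom called 0 in both, as did edgeR without LGDMEM 3. Over the 4 media together 14 members were called, where 22.9% of all rows were, and 9 without Plasmax 1 (16.5% of all rows). Without LGDMEM 3 there were again 14 (25.1% of all rows).

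The other genes of the pathway came from lists that exclude the 38 members. Of 30 transcription factors and redox partners 23 had a row. Against EMEM, LGDMEM and HGDMEM, 3, 3 and 2 of them were called higher in Plasmax and 7, 7 and 10 lower. The shares lower were 30.4%, 30.4% and 43.5%, where all rows gave 12.1%, 11.7% and 14.1%, and the shares higher were 13.0%, 13.0% and 8.70%, where all rows gave 10.0%, 9.48% and 12.8%. AHR, the receptor that induces CYP1A1, measured 11.2, 13.7 and 4.42 CPM in EMEM, 8.83, 9.83 and 9.51 CPM in LGDMEM, 8.81, 5.96 and 4.23 CPM in HGDMEM and 27.0, 21.6 and 30.4 CPM in Plasmax. All Plasmax libraries lay above the others (1.42, 1.48 and 2.04 log2, adjusted p = 0.00627, 0.00514 and 0.000348).

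CEBPA, a hepatocyte transcription factor, measured 191, 129 and 204 CPM in EMEM, 294, 198 and 143 CPM in LGDMEM, 274, 230.2 and 204 CPM in HGDMEM and 88.4, 100.3 and 66.4 CPM in Plasmax, and fell by 1.04, 1.31 and 1.47 on the log2 scale (adjusted p = 0.00307, 0.000487 and 0.000113). HNF4A, the nuclear receptor that maintains the hepatocyte program, measured 90.8, 76.9 and 86.2 CPM in EMEM, 85.6, 80.0 and 89.7 CPM in LGDMEM, 69.4, 87.1 and 107 CPM in HGDMEM and 62.6, 66.7 and 57.5 CPM in Plasmax. Its Plasmax libraries were the lowest, with log2 fold changes of −0.44, −0.45 and −0.49 just past the threshold (adjusted p = 0.0493, 0.0471 and 0.024). PPARA, the fatty acid receptor, lay at 11.6 to 17.7 CPM in Plasmax and 17.6 to 33.6 CPM elsewhere (−0.74, −0.82 and −0.74, adjusted p = 0.0499, 0.0325 and 0.0417).

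NR1H4, the bile acid receptor, was called lower against LGDMEM (−1.09, adjusted p = 0.00436) and HGDMEM (−1.02, adjusted p = 0.00521) and not against EMEM (−0.69, adjusted p = 0.0581). Its target NR0B2 showed log2 fold changes of −1.14 (adjusted p = 0.00798), −1.06 (adjusted p = 0.0102) and −0.52 (adjusted p = 0.208) in the same order. NR1I2, the pregnane X receptor, lay between 1.01 and 4.61 CPM over all libraries and was not called. RXRA, the shared partner of these receptors, and POR, the reductase that passes electrons to microsomal P450s, were not called either, with POR at 187 to 226 CPM in Plasmax and 157 to 221 CPM elsewhere. FDXR, the reductase that serves mitochondrial P450s such as CYP27A1, was higher against EMEM (0.85, adjusted p = 0.00674), and PGRMC1, a haem-binding partner of P450s, was lower (−0.85, adjusted p = 0.00341). FDXR was not called against HGDMEM (0.55, adjusted p = 0.0564). NR1I3 was not among the 23 transcription factors and redox partners with a row, so no value is given for it.

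**Figure D5:**
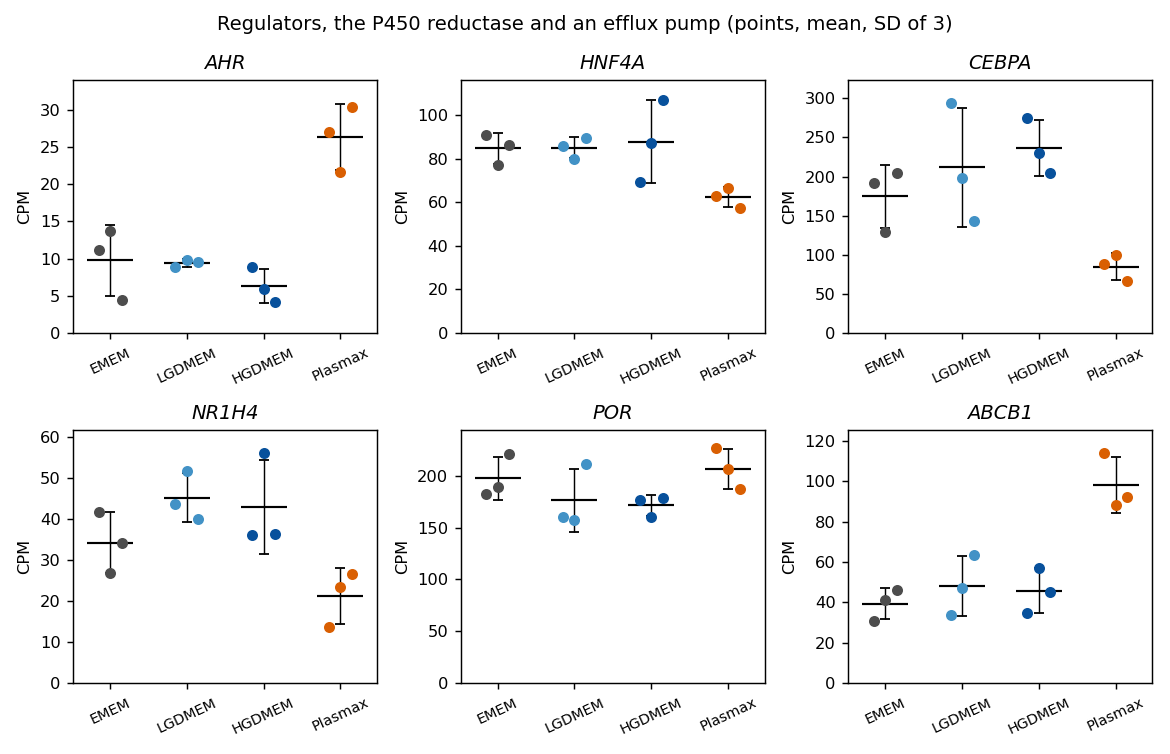
CPM of AHR, HNF4A, CEBPA, NR1H4, POR and ABCB1 in each library (points), with the mean and SD of the 3 libraries of each medium; each vertical axis starts at 0. AHR (21.6 to 30.4 CPM) and ABCB1 (88.1 to 114 CPM) are highest in Plasmax, CEBPA and HNF4A lowest, and POR overlaps.

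Other oxidising, reducing and hydrolysing enzymes outside the 5 families were called mostly lower as well. Of 45 listed, 30 had a row, and 0, 1 and 4 were called higher and 14, 13 and 14 lower in Plasmax against EMEM, LGDMEM and HGDMEM, with median log2 fold changes of −0.36, −0.48 and −0.58. The shares lower were 46.7%, 43.3% and 46.7%, where all rows gave 12.1%, 11.7% and 14.1%. The shares higher were 0%, 3.33% and 13.3%, where all rows gave 10.0%, 9.48% and 12.8%. Without LGDMEM 3 the count higher against LGDMEM was 4. Against EMEM the largest were the folate enzyme ALDH1L1 (−2.22, adjusted p = 0.00704), the alcohol dehydrogenase ADH6 (−1.44, adjusted p = 0.000139), the mitochondrial aldehyde dehydrogenase ALDH1B1 (−1.14, adjusted p = 0.00225) and the soluble epoxide hydrolase EPHX2 (−1.07, adjusted p = 0.00618). ALDH1L1 was not called against HGDMEM (−1.05, adjusted p = 0.184). Of 34 further steroid and retinoid enzymes 25 had a row, with 1, 0 and 0 higher and 9, 7 and 11 lower. This was 36%, 28% and 44% lower, where all rows gave 12.1%, 11.7% and 14.1%. It was 4%, 0% and 0% higher, where all rows gave 10.0%, 9.48% and 12.8%. STARD4, a carrier of cholesterol, fell by 2.90 on the log2 scale against EMEM (adjusted p = 1.5e-05), and the steroid dehydrogenases HSD11B2, which inactivates cortisol, and HSD17B2, which inactivates estradiol and testosterone, by 1.51 (adjusted p = 4.26e-05) and 1.38 (adjusted p = 0.000763). RDH10, which makes retinal from retinol, rose by 1.33 against EMEM (adjusted p = 0.00494). It was not called against LGDMEM (0.85, adjusted p = 0.0558) or HGDMEM (0.38, adjusted p = 0.382).

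Conjugating enzymes of other families and the suppliers of their donors were called about as often as all rows. Of 34 listed, 24 had a row, with 1, 1 and 4 higher and 3, 3 and 4 lower, or 16.7%, 16.7% and 33.3% called where all rows gave 22.1%, 21.2% and 26.9%. Without LGDMEM 3 the count lower against EMEM was 5. Against EMEM the called genes were GCLC, the first enzyme of glutathione synthesis (0.68, adjusted p = 0.00814), the glucuronidase GUSB (−0.65, adjusted p = 0.00955), the microsomal transferase MGST2 (−0.63, adjusted p = 0.00248) and UGDH, which makes the UDP-glucuronic acid used by UGTs (−0.42, adjusted p = 0.0102). GUSB was not called against LGDMEM (adjusted p = 0.184) or HGDMEM (0.152). GCLC was not called against LGDMEM (0.0635), nor UGDH against HGDMEM (0.0837).

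Transporters of drugs and bile acids were called in both directions, with 21 of 30 having a row, 4, 3 and 3 higher and 2, 2 and 3 lower. The shares called, 28.6%, 23.8% and 28.6%, were near the 22.1%, 21.2% and 26.9% of all rows. ABCB1, the multidrug efflux pump P-glycoprotein, measured 30.8, 41.1 and 46.3 CPM in EMEM, 33.6, 47.2 and 63.4 CPM in LGDMEM, 34.9, 57.3 and 45.1 CPM in HGDMEM and 114, 88.1 and 92.4 CPM in Plasmax, above all others (1.31 against EMEM, adjusted p = 0.000424). ABCC1 (1.11, adjusted p = 0.00511) and ABCC3 (0.88, adjusted p = 0.0102), exporters of glutathione, glucuronide and sulfate conjugates, were also higher against EMEM. SLCO4C1, an organic anion uptake carrier, lay at 0.379 to 0.827 CPM in Plasmax and 3.4 to 12.8 CPM elsewhere (−3.45, adjusted p = 0.000479).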

How the data were processed

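HepG2 in 4 media was profiled with the QuantSeq 3′ kit, 3 libraries a medium. The deposited table gives the authors' unnormalized read counts for 11546 rows. The submitters' processing notes name FastQC 0.72, cutadapt 1.16, STAR 2.7.5b, featureCounts 1.6.3, limma 3.40.6 and hg19/GRCh37. Rows of low counts had already been removed by a rule not given in the sources used here, since the third highest CPM of every row was at least 2.51. The presence of a gene could therefore depend on single media. Without HGDMEM CYP27B1, GSTA2, CYP2J2, GSTO2 and UGT2B4 would fall under that level, without EMEM CYP3A5 and UGT2B4, without LGDMEM CYP27B1 and GSTO2, and without Plasmax CYP27B1 and CYP2J2. CYP27B1, CYP2J2, GSTO2 and UGT2B4 thus needed libraries of more than 1 medium. Rows without a symbol (601, 2.92% to 3.71% of counts) were left out, 5 symbols stood on 2 rows, and 0 columns belonged to other samples.

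Counts were tested with edgeR 4.0.16 (R 4.3.3) on TMM-scaled libraries, all 12 in 1 fit without a block, in 6 pairwise comparisons and 1 over the media, with Benjamini-Hochberg adjustment at 0.05 over 10945 rows. SE is the log2 fold change over the square root of F. The script was tested on simulated data. Alternatives were scaling by RLE, by upper quartiles or by library size, a mean of at least 5 CPM, DESeq2 1.42.0, limma voom 3.58.1, a replicate block, 2-media fits and each library left out, 20 per Plasmax comparison. Named were each member called and the 8 with the highest mean CPM, and up to 4 called rows of each other list. Members and lists were chosen with earlier results of these data known. Promoter windows and gene order are from RefSeq GRCh38.p14, and 3′ end sharing was counted over GENCODE transcripts. No library pair of a medium agreed within sampling noise (chi-square per degree of freedom 7.10 to 22.2).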

Additional observations from a re-analysis of the deposited data

How the results depend on the processing

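No call of a member reversed in any alternative. Of the members called, 7 of 14 against EMEM, 9 of 13 against LGDMEM and 10 of 23 against HGDMEM were called in every alternative that tested them. The like share among all called rows was not computed, so these counts do not compare the members with other genes. Leaving out 1 library at a time gave 9 to 16 called members for Plasmax against EMEM (main value 14), 9 to 13 against LGDMEM (13), 12 to 24 against HGDMEM (23), 0 to 0 for LGDMEM against EMEM and for HGDMEM against LGDMEM, 0 to 1 for HGDMEM against EMEM and 9 to 18 over the 4 media (14). The share of all rows called against EMEM ranged from 15.5% to 24.3% in these fits (main value 22.1%). It was 15.2% to 20.8% against LGDMEM (21.2%), 20.6% to 28.9% against HGDMEM (26.9%) and 15.4% to 25.1% over the 4 media (22.9%). For HGDMEM against EMEM it was 0.00914% to 0.411% (0.164%). Between HGDMEM and EMEM, DESeq2 called 2 members and limma voom and the fit to those 2 media 1 each, where edgeR called 0. Of all rows, these 3 alternatives called 0.621%, 0.192% and 0.393%, where the main fit gave 0.164%. The cause was not tested. With the replicate number as a block the counts were 13, 13 and 23 for Plasmax against EMEM, LGDMEM and HGDMEM. All rows gave 23.1%, 22.1% and 27.8% there. The counts were 0 in the other 3 comparisons and 14 over the 4 media (24.1% of all rows). The numbers were treated as shared labels only: over all rows no comparison had a correlation of same-numbered deviations above 0.1 for all 3 numbers. Over the same rows, each library of HGDMEM with EMEM and of HGDMEM with LGDMEM correlated best with its own number (6 of 6). For LGDMEM with EMEM this was 3 of 6, and for Plasmax with EMEM, LGDMEM and HGDMEM 0, 0 and 2 of 6. In the 4366 rows averaging over 5 log2 CPM, all 3 correlations were above 0.1 for HGDMEM with EMEM (0.186, 0.110, 0.124) and with LGDMEM (0.246, 0.165, 0.210). Depth limits the low members, since CYP1A1, CYP3A7, CYP19A1 and GSTA2 rest on at most 166, 75, 53 and 48 counts in a library.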

Other observations

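CYP4F3, which hydroxylates leukotrienes and fatty acids, measured 49.3 CPM in EMEM 2 and 57.3 CPM in HGDMEM 2, and between 1.03 and 11.9 CPM in the other 10 libraries. Its neighbour CYP4F12 measured 6.94 CPM in EMEM 2 and 10.3 CPM in HGDMEM 2, within the range of its other libraries. CYP4F3 was the only row of the 10945 that was more than 3 times higher in both of these libraries than in each of the other 10. Of the 66 pairs of libraries, 4 had 1 such row and 62 had 0. CYP4F3 was singled out after its values were seen.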
